A study of Mus musculus with 17 samples.

Results

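Complement is a cascade of proteins that tags particles, microbes and cell debris for uptake. In the classical pathway, C1q binds a target and activates the proteases C1r and C1s, which cleave C4 and C2 to form an enzyme that cleaves C3. In the brain, C1q is made mainly by macrophages and microglia, while other components and regulators come from many cell types. The 9 genes described here are C1qa, C1qb and C1qc, which encode the chains of C1q, C1ra, C4b, C3, Cfb, the regulator genes Serping1 and Cd59a. They were chosen by name and matched by symbol to the Ensembl identifiers of the count table, 9 of its 55487 genes.

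Gene expression was measured by RNA sequencing of whole choroid plexus dissected from the lateral ventricles of C57BL/6 mice. The choroid plexus is a vascular tissue of the brain ventricles whose epithelium makes cerebrospinal fluid. Controls (CTRL, n = 5) were set beside mice that received DSS (dextran sodium sulfate), an agent toxic to the colon epithelium that serves as a colitis model. T1 mice had 1 day of DSS, T3 mice had 3 days, and T5 mice had 3 days of DSS followed by 2 days of water (n = 4 each). The labels give no age or sex and do not say that the libraries of a group came from separate animals, so p-values measure the spread between these libraries, which may be technical in part. Library totals ran from 8875921 to 26839417 counts. All 12 epithelial markers, Ttr among them, were detected in each group, where detected means reads in at least 1 library of the group. Their summed levels were 97700 to 222000 CPM (counts relative to the TMM-normalised library size), so the label held.

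All comparisons below with CTRL use the same 5 control libraries. Sample titles carry running numbers of 1 to 8 in CTRL and 23 to 26 in T5, so title number and group cannot be told apart there. T1 replicates 2, 3 and 4 and T3 replicate 4 have numbers of 28 and above, which leaves T1 replicate 1 as the 1 library of its group outside that set. Markers of neurons, astrocytes and oligodendrocytes, which belong to adjoining brain, also varied within groups, and oligodendrocyte markers summed to 96.9 to 7070 CPM in CTRL, 307 to 9200 CPM in T1, 171 to 982 CPM in T3 and 444 to 16500 CPM in T5. In bulk tissue, fewer cells of a type and less RNA per cell cannot be told apart.

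The C1q genes lie side by side on the minus strand of chromosome 4, within 18.7 kb (chr4:136880129-136898803, GRCm38), and the results turn on their joint movement. The promoter sequences of C1qb and C1qc, with that of C3 for contrast, are shown from the RefSeq promoter table (GRCm38.p6), which has no entry for C1qa. They are written 5′ to 3′ on the gene's own strand and end at the base before the annotated start, except for C1qc. Its RefSeq start lies inside the GENCODE gene, and only the 99 bases outside that gene are shown. The windows are chr4:136886201-136886450 for C1qb, chr4:136893066-136893164 for C1qc and chr17:57228137-57228386 for C3. Capitals mark matches on either strand to an NF-kB type motif (GGGA, NNNN and CC in a row) and to GAGGAA, the core of the motif of PU.1, the myeloid transcription factor.
C1qb: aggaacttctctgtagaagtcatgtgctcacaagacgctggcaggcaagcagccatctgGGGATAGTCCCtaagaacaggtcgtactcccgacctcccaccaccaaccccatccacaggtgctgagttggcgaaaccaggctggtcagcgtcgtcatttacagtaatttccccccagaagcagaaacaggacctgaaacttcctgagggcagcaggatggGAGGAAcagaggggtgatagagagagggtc
C1qc: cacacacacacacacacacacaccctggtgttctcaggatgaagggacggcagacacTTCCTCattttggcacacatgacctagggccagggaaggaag
C3: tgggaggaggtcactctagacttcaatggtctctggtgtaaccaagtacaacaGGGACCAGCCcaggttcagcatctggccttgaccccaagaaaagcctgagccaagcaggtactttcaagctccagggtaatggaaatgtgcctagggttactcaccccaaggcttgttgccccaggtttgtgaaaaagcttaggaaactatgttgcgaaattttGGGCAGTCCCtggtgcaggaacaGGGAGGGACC

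Over the whole window of 250 bases, C1qb held 2 matches to the NF-kB type motif, which overlap on opposite strands at positions -191 and -190 from the start, and 1 PU.1 core match at -30. C1qc held 1 PU.1 core match at -193 and 1 NF-kB type match at -40. C3 held 3 NF-kB type matches and no PU.1 core match. None of the 5 members with an entry in the table held TTCNNNGAA, the interferon gamma (GAS) motif. Over all 32851 promoter windows of this length, 17.6% held the NF-kB type motif, 23.3% the PU.1 core and 7.02% the GAS motif. These are matches of letters, not sites shown to be bound.

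In control choroid plexus the inhibitor of the membrane attack complex was the most abundant member and the central components were among the scarcest. As a level per kilobase of merged exons, Cd59a stood at 218 ± 19.0 CPM per kb (SD, n = 5), above 98.8% of the 16848 tested genes with a known length. It encodes a membrane-anchored protein that blocks the last step of the cascade. C1qb stood at 44.3 ± 9.86, C1qa at 26.8 ± 7.48, Serping1 at 25.8 ± 4.30 and C1qc at 15.8 ± 2.98 CPM per kb. Neighbours in this order overlapped for C1qb (30.8 to 55.9 CPM per kb) and C1qa (18.4 to 35.5), and for C1qa and Serping1 (20 to 29.7). Cd59a lay above C1qb and C1qc (11.2 to 18) below Serping1 without overlap. C1ra stood at 2.46 ± 0.391, C4b at 0.822 ± 0.675 and C3 at 0.441 ± 0.488 CPM per kb, and the ranges of C4b and C3 overlapped (0.303 to 1.84 and 0.0314 to 1.26). Cfb, which encodes the protease of the alternative pathway amplification loop, came last at 0.0119 ± 0.0266 CPM per kb.

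Among the other complement genes, some of the highest levels were those of regulators. Clu, which encodes clusterin, an inhibitor of terminal complex assembly and an apolipoprotein, stood at 1280 CPM per kb, and Vtn (vitronectin) at 52.7. Cd55, the gene of decay-accelerating factor, stood at 18.2 CPM per kb. C1s1 stood at 1.65 and C2 at 0.553, while Mbl1, Mbl2, C8a and C8b had no count in any CTRL library. Hc, the mouse gene for C5, stood at 0.345 CPM per kb.

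**Figure D1:**
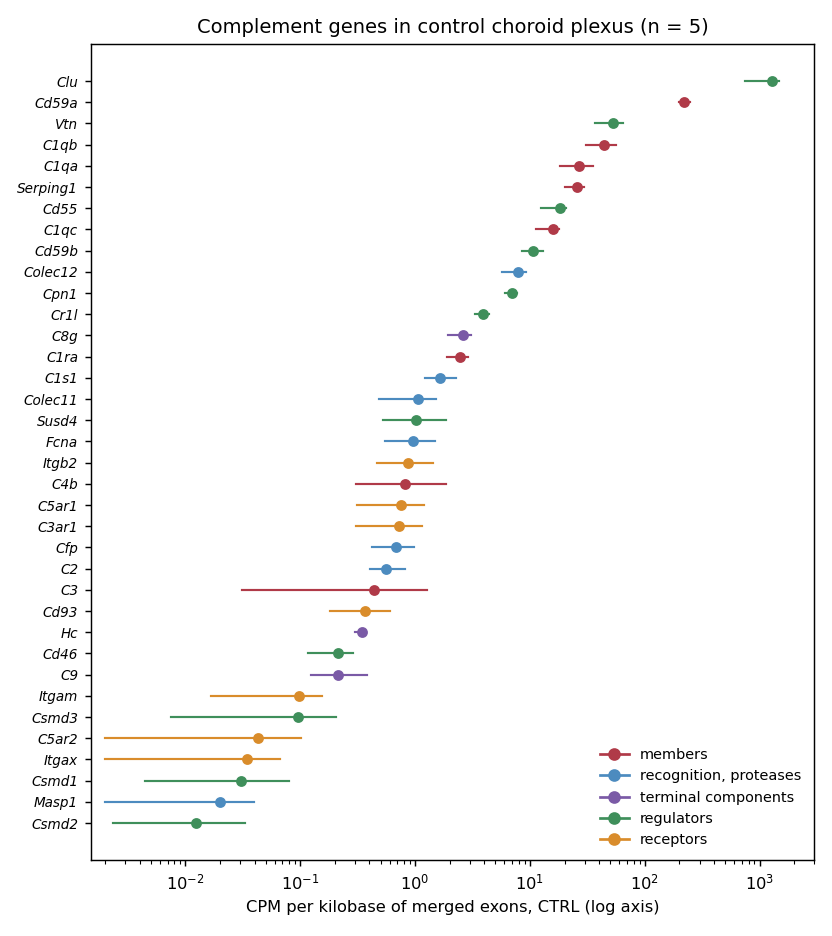
Level of the complement genes described here that passed the low-count filter in the 5 CTRL libraries, in CPM per kilobase of merged exons on a log axis. Points are means and lines run from the lowest to the highest library, with libraries at 0 drawn at the left end. Cd59a and Clu lie to the right, and C4b and C3 below 1 CPM per kb.

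The C1q genes were higher in T5 than in CTRL at unadjusted p-values, and none was called after adjustment over all genes. C1qb read 84.4, 78.6, 134 and 59.5 CPM in T5, against 60.8, 42.4, 33.5, 55.2 and 49.0 CPM in CTRL. All T5 libraries but replicate 4 lay above every control. The log2 fold change was 0.89 ± 0.26 (approximate SE), with an edgeR quasi-likelihood p of 0.00328 and a Benjamini-Hochberg adjusted p of 0.568. C1qc read 50.7, 45.5, 78.4 and 36.8 CPM in T5, against 34.8, 28.1, 21.6, 34.0 and 34.5 CPM in CTRL. The 2 groups of C1qc values did not overlap, and 2.56% of all tested genes had groups without overlap in this comparison. Its log2 fold change was 0.79 ± 0.26 by edgeR (unadjusted p = 0.00761, adjusted p = 0.598). C1qa read 53.6, 41.2, 69.6 and 29.9 CPM in T5, against 36.9, 21.7, 19.1, 34.7 and 27.1 CPM in CTRL. Replicate 4 lay within the control range and the others above it, and edgeR gave a log2 fold change of 0.80 ± 0.28 (unadjusted p = 0.0104, adjusted p = 0.598).

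The same genes were also higher in T5, the time point after DSS was withdrawn, than in T3 at unadjusted p-values. C1qb read 43.6, 42.3, 36.2 and 46.0 CPM in T3, C1qa 25.7, 22.6, 19.0 and 27.5, and C1qc 31.2, 26.6, 23.8 and 35.9. For each of the 3 genes the T5 libraries lay above all 4 T3 libraries, and 7.36% of all tested genes had groups without overlap here. The log2 fold changes of T5 against T3 by edgeR were 1.08 ± 0.28 for C1qb (unadjusted p = 0.00117, adjusted p = 0.267), 1.03 ± 0.30 for C1qa (unadjusted p = 0.00293, adjusted p = 0.300) and 0.85 ± 0.28 for C1qc (unadjusted p = 0.00726, adjusted p = 0.348). DESeq2 gave C1qb 1.09 with an adjusted p of 0.0352, and its calls over all genes were not counted in this comparison. With the mean of the brain markers (neurons, astrocytes and oligodendrocytes) as a covariate the values were 0.77 for C1qb, 0.72 for C1qa and 0.54 for C1qc. Markers of several cell types were mostly positive in T5 against T3 as well. The oligodendrocyte markers had 10 of 10 positive signs (median log2 fold change 3.52), the astrocyte markers 9 of 10 (1.07), the neuron markers 10 of 10 (0.81), the erythrocyte markers 6 of 6 (1.34) and the markers shared by macrophages and microglia 12 of 12 (0.81). Against CTRL, the T3 values of edgeR were -0.20 ± 0.26 for C1qb, -0.23 ± 0.28 for C1qa and -0.06 ± 0.26 for C1qc (adjusted p = 0.925, 0.922 and 0.975).

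At T1 the C1q genes were spread widely. C1qb read 52.5, 30.7, 86.4 and 61.7 CPM in T1, C1qa 29.3, 17.6, 47.9 and 37.3, and C1qc 32.7, 20.9, 59.8 and 40.9. Replicate 2 was the lowest and replicate 3 the highest T1 library for each of the 3 genes. The T1 libraries overlapped the controls on both sides, with edgeR log2 fold changes of 0.26 ± 0.26, 0.24 ± 0.28 and 0.33 ± 0.26 for C1qb, C1qa and C1qc (adjusted p = 0.559, 0.620 and 0.459).

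**Figure D2:**
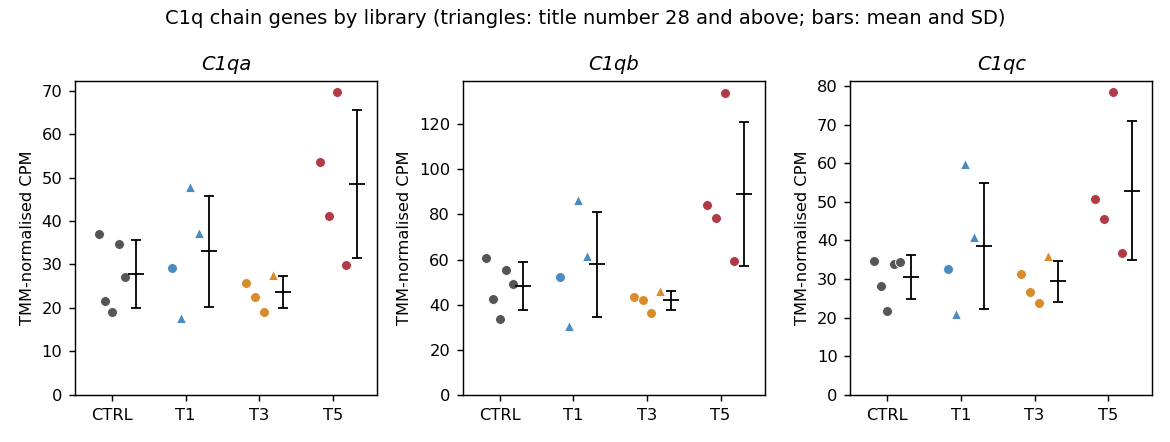
TMM-normalised CPM of C1qa, C1qb and C1qc in each library, in the order CTRL (n = 5), T1, T3 and T5 (n = 4 each). Horizontal ticks and bars are the mean and SD, and triangles are libraries with title numbers of 28 and above. T5 replicate 3 is the highest library in all 3 panels, and T3 is narrow and close to CTRL.

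The 3 chains kept nearly fixed proportions while their levels moved. Of their summed level per kb, C1qb made up 48.4 to 53.3% over the 17 libraries, C1qa 28.1 to 33.2% and C1qc 16.5 to 21.3%. The C1qb share had a median of 53.3% in T5 and 51.0% in CTRL. T5 replicate 3 weighed on the T5 result: without it the log2 fold changes against CTRL were 0.62 for C1qb, 0.58 for C1qa and 0.54 for C1qc (edgeR adjusted p = 0.821, 0.836 and 0.831). Without T5 replicate 4, the library nearest the controls, they were 1.04, 0.97 and 0.93. T5 replicate 3 had an oligodendrocyte marker sum of 16500 CPM, against 444 to 1070 CPM in the other T5 libraries. Its sum of the markers shared by macrophages and microglia was 513 CPM, against 249 to 285 CPM. Its border macrophage sum of 83.7 CPM lay within their range of 59.7 to 108 CPM. The part of these markers in the C1q values of that library was not tested.

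Markers shared by macrophages and microglia moved with the C1q genes. All 12 shared markers were detected in each group, and their summed level was 166 to 261 CPM in CTRL, 203 to 367 CPM in T1, 170 to 241 CPM in T3 and 249 to 513 CPM in T5. In T5 against CTRL all 12 were positive on the log2 scale, and their median of 0.82 stood beside 0.02 over all genes. The median was 0.78 for the 10 microglia markers (10 positive) and 0.66 for the 12 border macrophage markers (10 positive), which mark the macrophages of the plexus and meninges. Markers of several other cell types had medians of like size in T5 against CTRL or larger ones. Neuron markers had 10 of 10 positive signs (median 1.78), oligodendrocyte markers 10 of 10 (0.93), astrocyte markers 8 of 10 (0.94) and erythrocyte markers 6 of 6 (0.73). Medians were lower for monocytes and dendritic cells (0.51), endothelium (0.35) and mural cells (0.18). The lowest were those of neutrophils (0.03), epithelium (-0.05) and ependymal cells (-0.06). The summed border macrophage level was 59.7 to 108 CPM in T5 and 42.9 to 78.4 CPM in CTRL. The summed level of the 10 microglia markers was 47.6 to 153 CPM in T5 and 40.2 to 72.1 CPM in CTRL.

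Over the 17 libraries, log2 CPM of C1qc followed the mean log2 CPM of the shared markers with Pearson r = 0.960 and Spearman rho = 0.944. For C1qb r was 0.924 and rho 0.890, and for C1qa 0.911 and 0.880. Each r had a permutation p of 1e-05, the smallest that the permutations can give, and 2.67e-05 after adjustment over the 8 tested members. Without the 2 libraries farthest from the median, r was 0.943 for C1qc, 0.873 for C1qb and 0.856 for C1qa. As deviations from group means, r was 0.945, 0.900 and 0.872, and over the 13 libraries with title numbers under 28 it was 0.982, 0.959 and 0.929. The list was chosen for this relation after its levels had been seen. The C1q genes also followed the brain marker mean, with r = 0.690 for C1qc, 0.650 for C1qb and 0.666 for C1qa (rho = 0.694, 0.630 and 0.610; permutation adjusted p of r = 0.0056, 0.00965 and 0.00935). With the border macrophage mean r was 0.717, 0.642 and 0.698 (rho = 0.804, 0.738 and 0.762; permutation adjusted p of r = 0.00524, 0.00965 and 0.0056). These p-values were adjusted over 16 relations, those of the 8 tested members with each of the 2 lists. Without the 2 farthest libraries r was 0.653, 0.623 and 0.629 for the brain markers and 0.767, 0.758 and 0.813 for the border macrophage markers. Within groups it was 0.628, 0.592 and 0.601 for the brain markers and 0.699, 0.641 and 0.714 for the border macrophage markers. Over the 13 libraries of lower title number it was 0.802, 0.803 and 0.777, and 0.794, 0.808 and 0.846. With the mean of the border macrophage markers as a covariate the T5 log2 fold changes were 0.59 for C1qb, 0.44 for C1qa and 0.46 for C1qc. With the mean of the brain markers they were 0.64, 0.55 and 0.53.

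**Figure D3:**
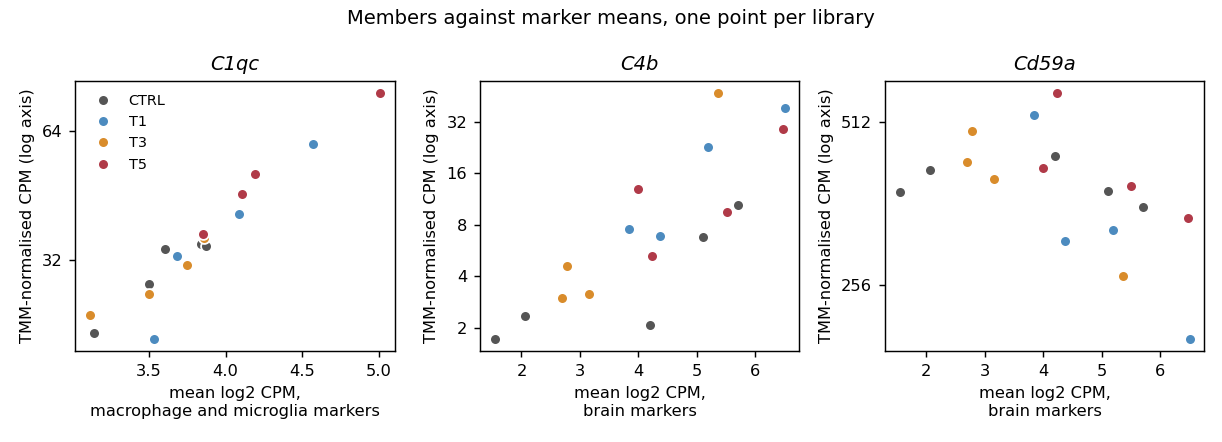
TMM-normalised CPM on a log axis against the mean log2 CPM of a marker list, 1 point per library (n = 17). C1qc rises with the shared macrophage and microglia markers, C4b with the brain markers, and Cd59a declines with the brain markers. CTRL, T1 and T3 points are intermixed, and T5 points overlap those of T1, with T5 replicate 3 at the upper right for C1qc.

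The genes most like C1qb over the libraries came from that shared list. Among 10625 protein-coding genes with at least 5 CPM on average, the highest correlations of log2 CPM with C1qb were those of Fcer1g (r = 0.930), Tyrobp (0.927) and Ctss (0.896). Fcer1g and Tyrobp encode signalling adaptors of myeloid receptors, and Ctss encodes the protease cathepsin S.

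C1ra, which encodes the C1r protease that C1q activates, read 10, 9.04, 15.4 and 8.20 CPM in T1, against 5.59, 7.26, 8.58, 6.99 and 8.19 CPM in CTRL. T1 replicates 1, 2 and 3 lay above every control and replicate 4 within their range. edgeR gave a log2 fold change of 0.54 ± 0.20 (unadjusted p = 0.0149, adjusted p = 0.160), and 0.32 without T1 replicate 3. C1ra averaged 8.51 ± 1.51 CPM in T3 and 8.68 ± 1.38 CPM in T5 (SD, n = 4 each), with log2 fold changes of 0.22 ± 0.20 and 0.24 ± 0.20 (edgeR adjusted p = 0.914 and 0.827). Its paralog C1rb had at most 8 counts in a library, and reads that match both genes cannot be assigned with certainty.

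C4b, whose product forms part of the C3-cleaving enzyme, varied widely between libraries. It read 7.55, 6.88, 22.9 and 38.6 CPM in T1, against 6.78, 2.34, 1.72, 2.08 and 10.5 CPM in CTRL. T1 replicates 3 and 4 lay above all controls and the other two within their range. The edgeR log2 fold change was 2.02 ± 0.91 (unadjusted p = 0.0425, adjusted p = 0.222). With a term for title numbers of 28 and above it was -0.09, and without those 4 libraries 0.68, in a fit with 1 T1 library whose spread is taken from the other groups.

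In T3, C4b read 2.99, 3.14, 4.57 and 47.0 CPM, so that 1 library stood apart. edgeR gave 1.64 ± 0.90 against CTRL (adjusted p = 0.911), and -0.40 without T3 replicate 4. In T5, C4b read 12.9, 9.45, 29.1 and 5.23 CPM, with replicates 1 and 3 above all controls, and edgeR gave 1.6 ± 0.90 (adjusted p = 0.704). With the brain marker mean as a covariate the values were 1.29 in T3 and 0.68 in T5, and with the border macrophage mean 0.3 in T3 and 0.52 in T5. C4a, a near-identical paralog, held 0 to 8 counts per library. Reads that match both genes cannot be assigned with certainty, since the handling of such reads is not given in the sources used here.

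C4b varied with brain and border macrophage markers. Its log2 CPM correlated with the mean of the brain markers at r = 0.830 (rho = 0.819) and with that of the border macrophage markers at r = 0.824 (rho = 0.848). Both permutation p-values of r, 6e-05 and 7e-05, came to 0.00056 after adjustment over the 16 relations. Leaving out the 2 farthest libraries gave r = 0.759 and 0.732, within groups it was 0.828 and 0.784, and over the 13 libraries of lower title number 0.822 and 0.754. T3 replicate 4, the library with 47.0 CPM of C4b, had a brain marker mean of 5.36 against 2.69 to 3.16 in the other T3 libraries. Its border macrophage mean was 3.01 against 1.16 to 1.39 (log2 CPM). With the brain marker mean as a covariate the T1 log2 fold change of C4b was 0.96. The genes most like C4b were Clic4, a chloride channel family gene (r = 0.958), Itpr2, an intracellular calcium channel gene (0.931), and S1pr1, a sphingosine 1-phosphate receptor gene (0.927).

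C3, the component on which all pathways converge, was low and uneven. It read 3.67, 2.65, 6.28 and 5.83 CPM in T1, against 6.49, 0.161, 0.589, 2.08 and 2.02 CPM in CTRL. CTRL replicate 1 held more than any T1 library, and the other 4 controls less than each of them. edgeR gave a log2 fold change of 1.03 ± 0.79 (adjusted p = 0.454), and 1.95 without CTRL replicate 1 (adjusted p = 0.187). Leaving out any other single library gave 0.72 to 1.22. By limma-voom it was 2.31 (adjusted p = 0.0206). C3 averaged 1.58 ± 0.577 CPM in T3 and 1.62 ± 1.98 CPM in T5 (SD, n = 4 each), with -0.50 ± 0.81 and -0.48 ± 0.82 against CTRL (adjusted p = 0.945 and 0.929). Both turned positive without CTRL replicate 1, at 0.40 and 0.44. The gene most like C3 was Nfkb1, which encodes an NF-kB subunit (r = 0.872), followed by Atxn7l1 (0.832) and Arid5b (0.829). C3 also varied with the brain marker mean (r = 0.583, rho = 0.490, permutation adjusted p = 0.0231 and 0.0635). Within groups r was 0.681 (permutation adjusted p = 0.0242). Leaving out the 2 farthest libraries gave 0.477 (0.107), and the 13 libraries of lower title number gave 0.493 (0.141).

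Cfb had few reads in any library. Its raw counts were 2, 4, 12 and 0 in T1, 0, 1, 3 and 1 in T3, and 2, 3, 5 and 0 in T5, against 0, 0, 4, 0 and 0 in CTRL. Only CTRL replicate 3 held reads among the controls, and T1 replicate 3 held the most. A library without a read allows up to 3 counts, or 0.116 to 0.187 CPM in the 4 such controls, for counting error only. Cfb failed the low-count filter and is not among the 8 members tested. It overlaps the gene Gm20547 on the same strand, and reads in the shared part cannot be assigned with certainty.

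**Figure D4:**
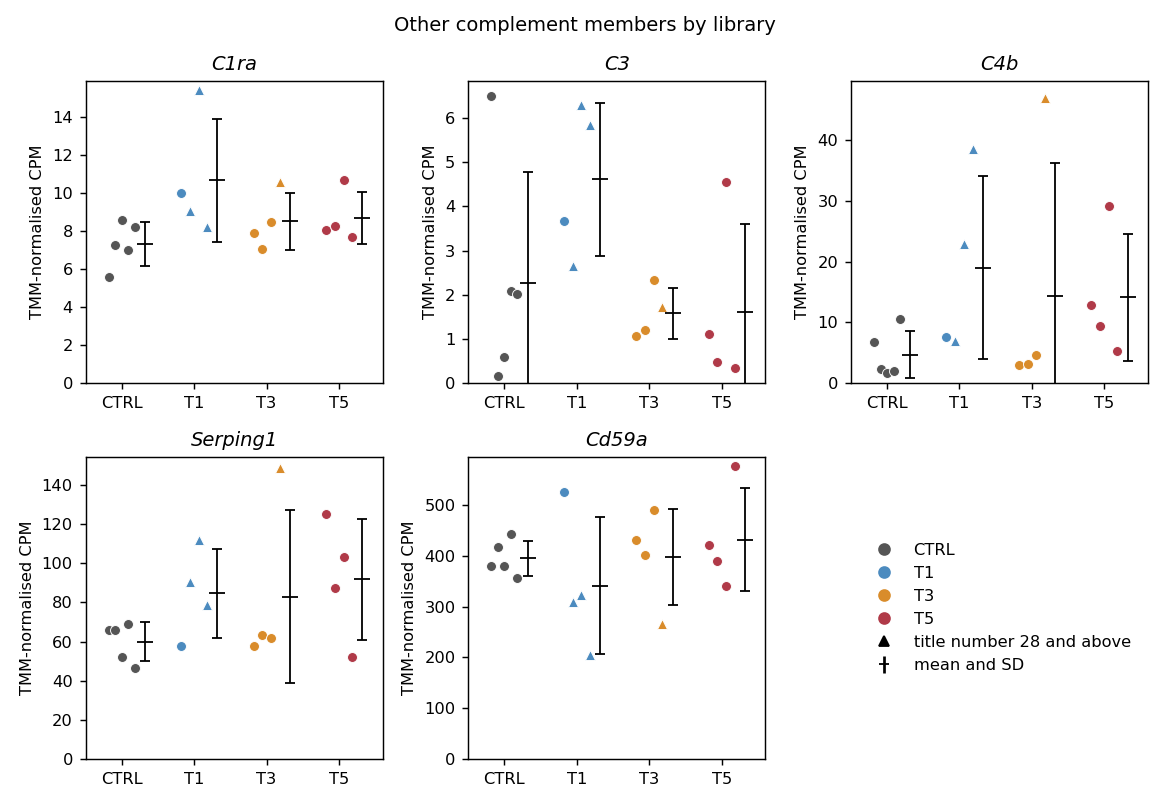
TMM-normalised CPM of C1ra, C3, C4b, Serping1 and Cd59a in each library, in the order CTRL, T1, T3 and T5. Horizontal ticks and bars are the mean and SD, cut at 0 where the SD exceeds the mean, and triangles are libraries with title numbers of 28 and above. The T3 triangle lies far above the other T3 points for C4b and Serping1 and lowest for Cd59a.

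Serping1 encodes the C1 inhibitor, which inactivates C1r and C1s. It read 125, 87.2, 103 and 51.9 CPM in T5, against 66.0, 65.8, 52.1, 69.1 and 46.4 CPM in CTRL. T5 replicates 1, 2 and 3 lay above every control and replicate 4 within their range, and edgeR gave a log2 fold change of 0.62 ± 0.29 (unadjusted p = 0.0514, adjusted p = 0.642). In T1 it read 57.7, 90.7, 112 and 78.6 CPM, with 0.50 ± 0.29 against CTRL (adjusted p = 0.330). The libraries of title number 28 and above were the high ones, and without them the value was -0.07. In T3 it read 57.6, 63.3, 61.6 and 149 CPM, with 0.47 ± 0.29 (adjusted p = 0.911), and 0.02 without T3 replicate 4.

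Serping1 followed the border macrophage markers (r = 0.783, rho = 0.735, permutation p of r = 0.00022, adjusted p = 0.00117). Leaving out the 2 farthest libraries gave r = 0.698, within groups 0.729 and over the 13 libraries of lower title number 0.693. The genes most like it were Bgn, which encodes the matrix proteoglycan biglycan (r = 0.943), Fam174b (0.938) and Lsp1, a leukocyte cytoskeletal gene (0.920). Fibroblast markers summed to 537 to 1260 CPM in T5 and 416 to 706 CPM in CTRL, and to 1280 CPM in T3 replicate 4 against 551 to 609 CPM in the other T3 libraries. In T1 the fibroblast sum was highest in replicate 1 (717 CPM), which had the least Serping1. It was lowest in replicate 3 (635 CPM), which had the most. Markers of mural cells (pericytes and smooth muscle) summed to 574 CPM in T3 replicate 4 against 66.8 to 81.8 CPM in the other T3 libraries. Their sum was 64.7 to 332 CPM in T5, 98.9 to 208 CPM in T1 and 54.4 to 151 CPM in CTRL. All 12 fibroblast markers were detected in each group, and the part of either list in the Serping1 values was not tested.

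Cd59a was similar on average in all groups, at 395 ± 34.4 CPM in CTRL (SD, n = 5), 341 ± 135 in T1, 398 ± 95.2 in T3 and 432 ± 102 in T5 (n = 4 each). Its edgeR log2 fold changes against CTRL were -0.21 ± 0.23 in T1, 0.01 ± 0.23 in T3 and 0.13 ± 0.23 in T5 (adjusted p = 0.590, 0.995 and 0.932). Within T1 it read 527 CPM in replicate 1 and 309, 324 and 204 CPM in the libraries of title number 28 and above. In T3 it read 432, 402, 491 and 266 CPM, with the lowest value in the library of that set. Without the set, the T1 log2 fold change was 0.40. Cd59a was the 1 tested member that declined as brain markers rose (r = -0.558, rho = -0.610, permutation p of r = 0.0189, adjusted p = 0.0275). Leaving out the 2 farthest libraries gave r = -0.532 with an adjusted p of 0.065, within groups it was -0.637, and over the 13 libraries of lower title number -0.33 with an adjusted p of 0.330. Epithelial markers moved with Cd59a in the libraries at its extremes. They summed to 97700 CPM in T1 replicate 4 and 112000 CPM in T3 replicate 4, the libraries with the least Cd59a, and to 222000 CPM in T1 replicate 1 and 215000 CPM in T5 replicate 4, those with the most. The part of the epithelial markers in the Cd59a values was not tested. Its paralog Cd59b was also expressed, at 10.7 ± 1.61 CPM per kb in CTRL (SD, n = 5), so reads could have been split between the 2 genes.

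**Figure D5:**
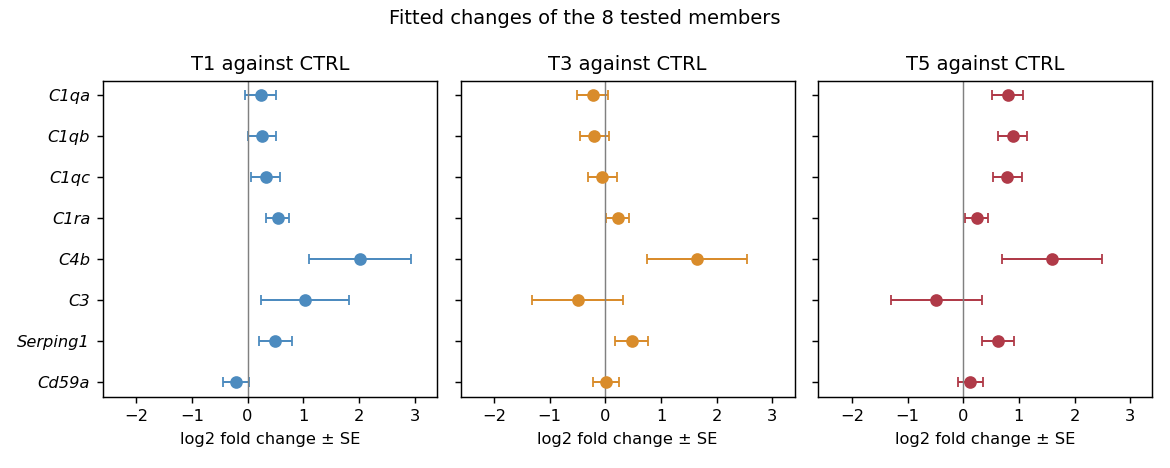
edgeR log2 fold changes of the 8 tested members in T1, T3 and T5 against CTRL, with approximate SE as bars and a line at no change. The C1q genes lie at 0.79 to 0.89 in T5 and close to 0 in T3, and C4b has the widest bars in each panel.

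By the adjusted threshold of 0.05, 0 of the 8 tested members were called by edgeR in T1, T3 or T5 against CTRL. In each of these 3 comparisons 0 of 16851 genes were called (0%). Unadjusted p under 0.05 with a higher level in T1 was met by 2 of 8 members, C1ra and C4b, beside 9.43% of all genes. In T3 it was met by 0 of 8 members, beside 3.2% of all genes, and in T5 by 3 of 8, the C1q genes, beside 3.89%. No member was lower at that level in these comparisons. Over all genes, 1589 were higher and 1964 lower at that level in T1, 539 and 299 in T3, and 656 and 664 in T5. DESeq2 called 0 members in all 3 of them, and 537, 1 and 17 genes in T1, T3 and T5, while limma-voom called 4 members and 4140 genes in T1 and none in T3 or T5. Since the 3 C1q genes kept nearly fixed proportions, here and below they are not 3 independent results. The members were also chosen with earlier results of these data known, so their shares and those of all genes are not a test.

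The groups of values did not overlap in 0 members for T1 and T3 against CTRL, beside 6.76% and 1.7% of all genes. The median log2 fold change of the 8 members was 0.42 in T1, -0.02 in T3 and 0.70 in T5, beside 0.08, 0.02 and 0.02 over all genes tested. Positive signs were found in 7, 4 and 7 of the 8 members, beside 57.7%, 52.7% and 54.5% of all genes.

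Between the DSS groups, 0 of 8 members were called in T3 against T1 and in T5 against T3, where 0 genes were called (0%), or in T5 against T1, where 677 genes were called (4.02%). At unadjusted p under 0.05, 0 members were higher in T3 than in T1, beside 3.57% of all genes. In T5 against T3 the 3 C1q genes were higher, beside 4.31% of all genes. In T5 against T1 C1qb alone was higher (0.62 ± 0.27, unadjusted p = 0.0368, edgeR adjusted p = 0.162), beside 13.1%. The test of any difference between the 4 groups called 0 members and 0 genes (0%), with unadjusted p under 0.05 for the 3 C1q genes (0.00436 for C1qb, edgeR adjusted p = 0.154) beside 18% of all genes.

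Of 50 other listed complement genes in the table, 29 passed the filter, and 0 were called against CTRL. Cfp, which encodes properdin, the stabiliser of the alternative pathway enzyme, had the smallest p of them. It read 2.45, 1.95, 5.38 and 4.28 CPM in T1, against 1.69, 0.726, 1.14, 1.32 and 1.01 CPM in CTRL, with no overlap and a log2 fold change of 1.58 ± 0.37 (edgeR unadjusted p = 0.000536, adjusted p = 0.128). In this comparison 6.76% of all tested genes had groups without overlap. The T5 value of Cfp was 0.89 ± 0.37 (edgeR unadjusted p = 0.0276, adjusted p = 0.608). Among the 7 tested recognition and protease genes, 6 had a positive sign in T1, 6 in T3 and 5 in T5. Fcna, a ficolin gene of myeloid cells, had 1 ± 0.41 in T5 (edgeR adjusted p = 0.604), and C1s1, the partner protease of C1r, 0.51 ± 0.23 in T1 (adjusted p = 0.221).

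Receptor genes were positive in 7 of 7 tested in T1 (median log2 fold change 1.37), 6 of 7 in T3 (0.24) and 7 of 7 in T5 (0.64). T1 replicate 3 had the highest levels of C5ar1 (9.46 CPM), Itgam (2.78) and Itgb2 (10.2), an integrin chain gene named here after its values were seen. Neutrophil markers summed to 57.4 CPM in that library and to 3.37 to 6.19 CPM in the other T1 libraries. All 10 were detected in T1, and 5 of the 10 passed the low-count filter. Border macrophage markers summed to 140 CPM there, against 66.3 to 85.4 CPM in the other T1 libraries. The shared macrophage and microglia markers summed to 367 against 203 to 286 CPM. Markers of monocytes and dendritic cells summed to 34.6 against 10.1 to 21.1 CPM. CTRL replicate 5 had a neutrophil sum of 29.7 CPM, with 2.41 CPM of C5ar1, 0.785 of Itgam and 4.37 of Itgb2. The part of these lists in the receptor values was not tested. Cd93, a receptor of endothelial and myeloid cells once described as a C1q receptor, read 3.27, 4.28, 11.4 and 8.47 CPM in T1, against 3.95, 1.21, 1.39, 4.03 and 1.63 CPM in CTRL. T1 replicates 2, 3 and 4, with title numbers of 28 and above, lay above every control, and replicate 1 within their range. T3 replicate 4, also of that set, read 5.52 CPM against 1.51 to 2.12 CPM in the other T3 libraries. The edgeR log2 fold change of Cd93 in T1 was 1.49 ± 0.47 (unadjusted p = 0.00573, adjusted p = 0.138). C5ar1, the C5a receptor gene, had 1.18 ± 0.50 in T1 (adjusted p = 0.194), and Itgam, a chain of complement receptor 3, 1.46 ± 0.64 in T5 (adjusted p = 0.617). Endothelial markers summed to 236 to 553 CPM in T1 and 120 to 269 CPM in CTRL, with all 12 detected in each group, and their part in the Cd93 values was not tested.

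Of the 12 tested regulator genes, 7 were positive in T1, 8 in T3 and 10 in T5. Csmd2 had 2.82 ± 1.27 in T1 from levels near 0 (edgeR adjusted p = 0.219), and Susd4 1.51 ± 0.62 in T5 (adjusted p = 0.604). Susd4 read 5.22, 26.3, 9.36 and 4.07 CPM in T5, against 4.40, 2.22, 3.83, 2.02 and 7.18 CPM in CTRL. T5 replicates 1 and 4 lay within the control range, and replicate 2, the highest, also had the highest sum of neuron markers (687 CPM). Among the 3 tested terminal components, Hc read 0.867, 0.737, 1.05 and 0.989 CPM in T3, against 2.26, 2.30, 2.27, 1.89 and 2.07 CPM in CTRL. All T3 libraries lay below all controls, a log2 fold change of -1.24 ± 0.40 (edgeR unadjusted p = 0.0068, adjusted p = 0.911). Hc held 9 to 24 counts per T3 library, and 1.7% of all tested genes had groups without overlap in this comparison. C9 and C8g had log2 fold changes of -0.34 ± 0.63 and 0.09 ± 0.28 in T5 (adjusted p = 0.935 and 0.966).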

How the data were processed

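The deposited table holds raw read counts per Ensembl gene for 17 libraries, made by the authors from SMART-Seq v4 cDNA of whole choroid plexus RNA, per the labels' protocols. Trimmomatic 0.39, STAR 2.6.1b, featureCounts 1.6.4 and GRCm38 are listed in the submitters' processing notes. Not given in the sources used here are the annotation release, the strandedness and the treatment of multi-mapping reads. PCR copies count as reads, so counting limits cover counting error only.

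Symbols, positions and exon lengths came from GENCODE M21 (GRCm38), which held 55394 of the 55487 identifiers. Library totals ran from 8875921 to 26839417. edgeR 4.0.16 in R 4.3.3 was run on the counts (TMM, filterByExpr by group, 1 mean per group over all 17 libraries, robust quasi-likelihood F tests, Benjamini-Hochberg over 16851 genes, threshold 0.05). The common dispersion of 0.141 is a biological coefficient of variation of 37.6%. The SE is approximate, taken as the size of the log2 fold change over the root of F. On counts simulated for T1 against CTRL (16351 genes in the fit), 8.16%, 38.3%, 60.4% and 81.6% of genes changed by 0.5, 1, 2 and 3 on the log2 scale were called, with 7 false calls. Genes were drawn independently of each other, without shifts shared by many genes, such as those of the brain markers. These shares therefore cannot be read as the power in the real data. Correlations used log2 CPM (prior count 2) and 100000 two-sided permutations; Cfb was left out as too low.

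Alternatives were DESeq2 1.42.0, limma-voom (limma 3.58.1) with quality weights, other normalizations, no filter, fits of the compared groups alone, each library left out, the libraries of title number 28 and above left out or given a term, and marker means as covariates. The members and lists were chosen with earlier results of these data known. All 9 members were described, and of the other complement genes those called against CTRL and up to 3 per role with the smallest p; 1 of these is not reported here. For C1qb, C3, C4b and Serping1, the 3 protein-coding genes with the highest r were named. RefSeq promoters (GRCm38.p6) matched 5 members, and the PU.1 motif and the shared macrophage list were added after the data were seen. The mouse has Hc for the listed C5.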

Additional observations from a re-analysis of the deposited data

Results flagged for a closer look

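Of 80 sets of 4 or 5 libraries (the 9 members and 11 other named complement genes in each group), 8 held a library far from the rest by Dixon's 95% criterion, and chance alone sets apart about 1 set in 20. T3 replicate 4 was that library for C4b (47.0 CPM, against 2.99 to 4.57 in the other T3 libraries), Serping1 (149, against 57.6 to 63.3), Cfp (2.47, against 1.06 to 1.28), Susd4 (11.3, against 2.31 to 3.14), Csmd2 (1.9, against 0 to 0.0913) and Cd93 (5.52, against 1.51 to 2.12 CPM). These genes were picked with the values in view, and T3 replicate 4 is the T3 library with a title number of 28 and above. CTRL replicate 3 was the only control with Cfb reads (0.168 CPM). As all other controls held no Cfb read, any read in that library would have met the criterion. T5 replicate 3 had 4.82 CPM of Fcna, against 1.8 to 2.05 in the other T5 libraries. The cause was not tested for any of them.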

How the results depend on the processing

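No paired analysis was possible because replicate numbers were given in accession order and pair no libraries. Log2 fold changes under the alternatives were computed for the 8 tested members against CTRL and for the C1q genes in T5 against T3. Of these, 696 alternative values kept their direction and side of the threshold, 28 turned and 5 gained a call. With limma-voom 4 members were called in T1 against CTRL (C3, C4b, C1ra and Serping1), 2 in T3 against T1 and 2 in the test of any difference. DESeq2 called 1 member in T5 against T3 (C1qb) and 2 in the test of any difference. By these methods, calls over all genes were counted only against CTRL. The member calls in the other comparisons therefore have no share of all genes beside them. Over all genes, DESeq2 called 537 in T1, 1 in T3 and 17 in T5 against CTRL, limma-voom 4140 in T1, and leaving out each library gave 0 to 2203 in T1. The count of 2203 came without T1 replicate 1, and 717 were called without T3 replicate 4. With the border macrophage covariate, C1qa and C1qb in T1 turned to -0.09 and -0.02. With the title number term, T1 values turned to -0.09 for C4b, -0.28 for Serping1 and 0.35 for Cd59a, and C4b in T3 to -0.02. Without those 4 libraries they were -0.07 for Serping1 and 0.4 for Cd59a in T1 and -0.38 for C4b in T3. C3 turned to 0.24 with the brain covariate and 0.76 by limma-voom in T3, and to 0.19 by limma-voom in T5. Cd59a in T3 was -0.01 with upper quartile scaling and -0.07 with the brain covariate. Leaving out each library gave -0.18 to 0.03 for C1qc, -0.81 to 0.4 for C3, -0.4 to 2.15 for C4b and -0.11 to 0.15 for Cd59a in T3 against CTRL, and -1.77 to 0.44 for C3 and -0.04 to 0.23 for Cd59a in T5 against CTRL. The cause was not tested. Depth limits Cfb (0 to 12 counts), whose fit without the filter gave 2.73 in T1 (edgeR unadjusted p = 0.0286, adjusted p = 0.273).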
